A study of Mus musculus with 12 samples.

Results

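Immunoglobulin and B cell genes were followed in T cells of the mouse spleen. The 6 genes are Igkc, Ighm, Ighd, Igha, Bank1 and Blk, taken by symbol wherever the deposited tables of average expression list them. They are 6 of the 3684 genes listed for either of the 2 cell types, CD4 and CD8a cells. The CD4 tables list 5 of them among 2999 genes (Igkc, Ighd, Igha, Bank1 and Blk), and the CD8a tables list 3 among 2851 (Igkc, Ighm and Ighd), so Igkc and Ighd can be compared between the cell types.

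Splenocytes came from 12 mice in 4 groups of 3, and RNA was profiled cell by cell with a kit that reads the 3′ end of transcripts. Wild-type C57Bl6/J mice and S100a9-/- mice of the same background either received no stress or went through 10 days of repeated social defeat, in which a mouse is defeated by an aggressor again and again. A day of behaviour tests followed, and spleens were taken on day 12. S100a9 encodes a calcium-binding protein of neutrophils and monocytes. The labels give neither age nor sex nor which part of S100a9 the allele removes, and they do not say how the cells were sorted into CD4 and CD8a cells. The comparisons ask what stress did in each genotype and what the S100a9 genotype did with and without stress.

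Mature B cells carry an antibody on their surface as the antigen receptor, built from 2 kinds of chain. Igkc encodes the constant region of the kappa light chain, and Ighm, Ighd and Igha encode the constant regions of the heavy chains of IgM, IgD and IgA. Naive B cells make IgM and IgD together from one long transcript, while IgA is made after class switching and is the antibody of mucosal surfaces. Blk is a kinase of the Src family that acts just below the B cell receptor, and Bank1 is a scaffold protein in the same pathway. Assembled immunoglobulin is a product of the B lineage. The values here are of constant-region genes, and they do not show whether a whole chain was assembled or which cells made the RNA.

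The 4 immunoglobulin members are constant-region genes of 2 loci, and the place where each one ends bears on what a 3′ readout can tell apart. In GENCODE M21, on the same assembly as mm10, Igkc is a single exon at chr6:70726435-70726966 on the plus strand. Ighm (chr12:113418558-113422730), Ighd (chr12:113406604-113416324) and Igha (chr12:113254830-113260236) lie in a row on the minus strand, with 2233 bases between Ighm and Ighd and 146367 bases between Ighd and Igha. Bank1 (chr3:136053363-136326066) and Blk (chr14:63372836-63417037) are also on the minus strand. The heavy-chain genes are annotated with a secreted and a membrane form that end in different exons. The last 60 coding bases before the stop codon are shown for these ends because they carry the difference between a receptor and a secreted antibody, and the capitals mark the last 3 codons of the membrane forms, which encode the short tail inside the cell.

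Ighm, membrane form, chr12:113418829-113419006, minus strand, over 2 exons: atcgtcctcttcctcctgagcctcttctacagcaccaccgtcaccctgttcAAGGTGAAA
Ighd, membrane form, chr12:113407538-113407817, minus strand, over 2 exons: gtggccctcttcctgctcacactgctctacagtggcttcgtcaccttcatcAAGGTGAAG
Ighm, secreted form, chr12:113420870-113420929, minus strand: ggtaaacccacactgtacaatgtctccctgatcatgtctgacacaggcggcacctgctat
Igha, secreted form, chr12:113258771-113258830, minus strand: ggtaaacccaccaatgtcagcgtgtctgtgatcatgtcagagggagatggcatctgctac
Igkc, chr6:70726695-70726754, plus strand: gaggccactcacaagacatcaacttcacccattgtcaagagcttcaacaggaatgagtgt

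The membrane ends of Ighm and Ighd hold the same base at 42 of the 60 positions and at 8 of the 9 positions in capitals. Even so, the longest run of bases shared by the annotated transcripts of any pair of the 6 genes was 10 to 13 bases over the 15 pairs. The files give 1 value per gene, so the membrane and secreted forms of Ighm, Ighd and Igha are not separated in any value here. How reads shared with other antibody genes were counted is not given in the sources used here.

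All values are average expression per mouse and cell type on a scale that fits 10000 per cell, written below as "per 10000". The numbers of cells and reads behind them are unknown, so no counting error can be given, and fewer cells of a kind cannot be told apart from less RNA per cell. The labels call the 12 samples separate mice, so the spread is between mice. The labelled cell types carried their markers, and CD4 cells also held some RNA of CD8 chains. In CD4 cells Cd4 was 1.66 to 3.01 per 10000, with Cd8a at 0.0526 to 0.269. Cd8b1 there was 0.291 to 0.822 in control and 0.303 to 0.883 in stressed mice. CD8a cells had Cd8a at 3.38 to 5.27, Cd8b1 at 8.01 to 11.6 and Cd3e at 4.04 to 6.19. S100a9 does not check the genotype labels. In CD4 cells S100a9 was 0.00449 to 0.0167 per 10000 in wild-type and 0.0418 to 0.0493 in knockout-labelled control mice, which is against the label, and 0.0595 to 0.111 against 0.0228 to 0.0294 in stressed mice. The S100a9-/- groups are therefore called knockout-labelled throughout. Each table lists the genes that the authors selected for 1 comparison on these same mice, so a count of listed genes is not independent evidence of a direction.

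Stress was accompanied by lower RNA of some antibody constant-region genes in both T cell populations. Ighd was lower in all 6 stressed mice than in all 6 control mice in both cell types, by 2.82-fold in CD4 and 3.60-fold in CD8a cells as a ratio of means, and CD8a Ighm by 1.51-fold. Falls with stress were common: 29.2% of all genes listed in CD4 cells and 35.6% of those in CD8a cells were called lower over both genotypes. T cell genes were among them, and Cd4 in CD4 cells (2.58 to 3.01 in control and 1.66 to 2.47 in stressed mice) and Cd3e in CD8a cells (5.50 to 6.19 and 4.04 to 4.76) did not overlap either. The share of all genes with no overlap between control and stressed mice was not counted. Igkc, Bank1 and Blk fell in knockout-labelled mice, while in wild-type mice their control and stressed values overlapped. Igha, the class-switched heavy chain, was the 1 member that did not fall in any stress comparison.

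**Figure D1:**
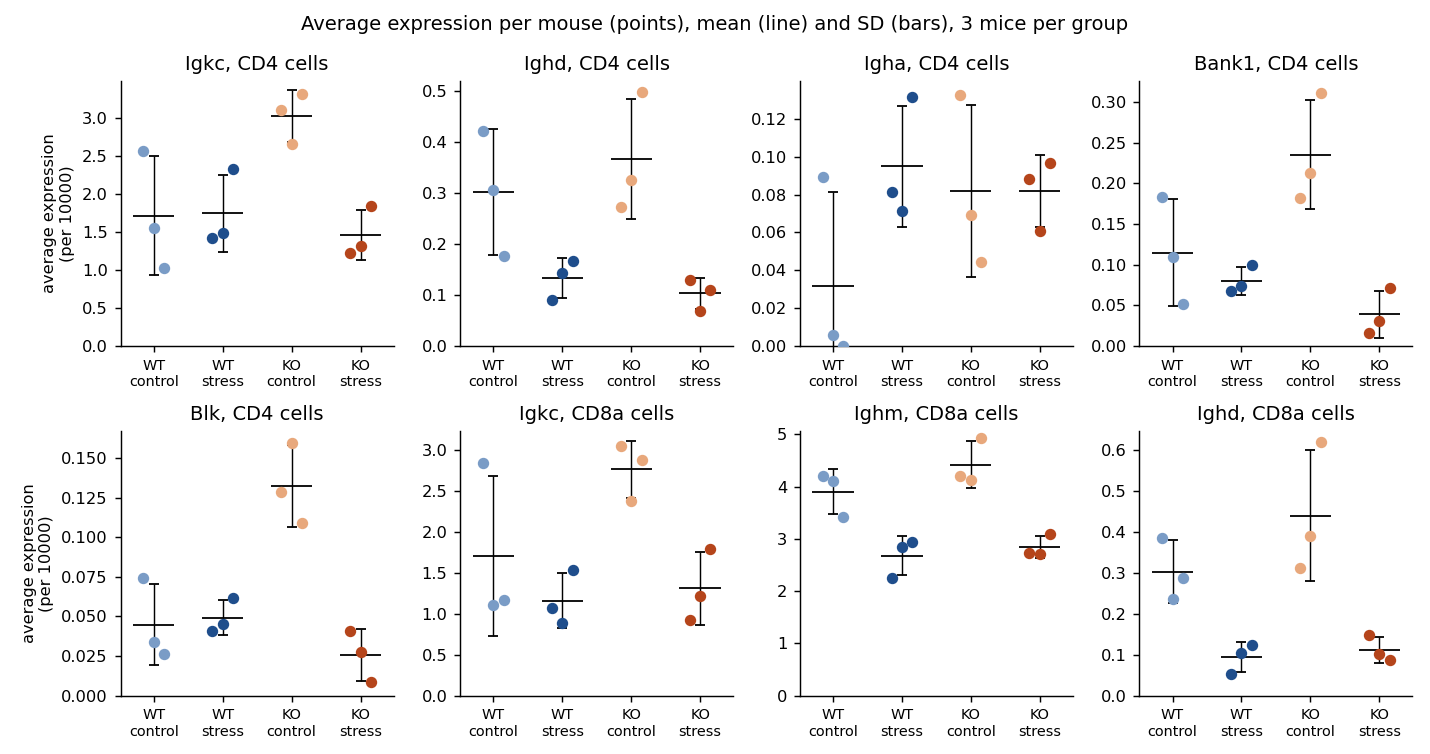
Average expression per 10000 (vertical axis, linear and starting at 0) of each gene in each mouse (points), with the mean (line) and SD (bars) of the 3 mice of each group; KO stands for knockout-labelled. Ighd and CD8a Ighm sit lower in every stressed mouse than in any control mouse, and CD4 Blk is 0.109 to 0.160 in knockout-labelled controls and at or below 0.0742 in the other mice.

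The light chain gene Igkc differed most among wild-type controls. In CD4 cells it was 2.56, 1.55 and 1.03 per 10000 in wild-type control mice 1 to 3 and 1.42, 1.49 and 2.33 in wild-type stressed mice. In knockout-labelled mice it was 3.11, 2.65 and 3.31 without stress and 1.22, 1.32 and 1.84 with stress. The 3 knockout-labelled controls stood above every other mouse, and the 2 wild-type groups overlapped.

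With stress, Igkc in CD4 cells fell by 1.02 on the log2 scale (SE 0.129, edge of the 95% interval nearest to no change -0.74) in knockout-labelled mice, with an adjusted p of 1.15e-05 by limma on log2(value + 0.1). All 3 members listed for that comparison fell, where 20% of its 1898 listed genes were called lower. In wild-type mice the change of Igkc was 0.08 ± 0.27 (SE, adjusted p = 0.832), with a 95% interval from -0.53 to 0.69. Igkc is not listed for the wild-type comparison, so this value comes from the same fit over all 2999 genes of the cell type.

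In CD8a cells the knockout-labelled controls again had the highest mean of Igkc. It was 2.84, 1.11 and 1.17 per 10000 in wild-type control mice and 1.07, 0.884 and 1.53 in wild-type stressed mice. In knockout-labelled mice it was 3.05, 2.38 and 2.88 without stress and 0.921, 1.22 and 1.79 with stress. The high value among wild-type controls belongs to mouse 1, the same mouse as in CD4 cells.

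Igkc in CD8a cells fell by 1.06 ± 0.16 with stress in knockout-labelled mice (log2, SE, limma adjusted p = 6.04e-05). All 3 members listed for this comparison fell, where 22.1% of its 2023 genes were called lower. In wild-type mice the change of Igkc was -0.42 ± 0.28 over all 2851 genes, of which 35.4% were called lower (adjusted p = 0.221, 95% interval -1.02 to 0.18). Without wild-type stressed mouse 3 it was -0.62 with an adjusted p of 0.0460.

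Ighm, the IgM heavy chain, is listed in CD8a cells only and had the narrowest spread of the members there. It was 4.21, 4.10 and 3.42 per 10000 in wild-type control mice and 2.25, 2.85 and 2.94 in wild-type stressed mice. In knockout-labelled mice it was 4.20, 4.12 and 4.94 without stress and 2.74, 2.72 and 3.09 with stress. No stressed mouse reached the lowest control mouse. The SD was 7.31% to 14.1% of the mean in the 4 groups, against 12.6% to 57.5% for Igkc and 25.1% to 38.7% for Ighd in the same cells.

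Ighm fell by 0.53 ± 0.11 in wild-type mice (log2, SE, limma adjusted p = 0.000551) and by 0.61 ± 0.08 in knockout-labelled mice (adjusted p = 1.85e-05). Both members listed for the wild-type comparison fell, where 41.5% of its 2108 genes were called lower. Averaged over genotypes, in a fit to all 12 mice, the fall of Ighm was 0.57 ± 0.07 (adjusted p = 9.96e-07).

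Ighd, the IgD heavy chain, had the largest proportional fall of the members listed in both cell types. In CD4 cells it was 0.422, 0.307 and 0.177 per 10000 in wild-type control mice and 0.0903, 0.143 and 0.167 in wild-type stressed mice. In knockout-labelled mice it was 0.273, 0.326 and 0.498 without stress and 0.129, 0.0692 and 0.111 with stress. The groups did not overlap in either genotype, though wild-type control mouse 3 lies close to the stressed mice.

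In CD4 cells the fall of Ighd was 1.18 ± 0.17 in knockout-labelled mice (log2, SE, limma adjusted p = 3.99e-05). In wild-type mice, where Ighd is not listed, the change was -0.75 ± 0.22 over all 2999 genes, of which 27.7% were called lower (adjusted p = 0.0156). That call was lost when 1 mouse was left out: the adjusted p was 0.0545 without wild-type control mouse 1, 0.0542 without wild-type control mouse 2 and 0.0597 without wild-type stressed mouse 1. Averaged over genotypes the fall of Ighd was 0.96 ± 0.16 (adjusted p = 5.78e-05), and 29.2% of the genes were called lower in that fit.

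In CD8a cells Ighd was 0.386, 0.236 and 0.289 per 10000 in wild-type control mice and 0.0538, 0.104 and 0.125 in wild-type stressed mice. In knockout-labelled mice it was 0.311, 0.390 and 0.620 without stress and 0.148, 0.101 and 0.0882 with stress. The highest stressed mouse had 0.148 and the lowest control mouse 0.236. The fall was 1.06 ± 0.17 in wild-type (log2, SE, limma adjusted p = 7.57e-05) and 1.32 ± 0.18 in knockout-labelled mice (adjusted p = 1.82e-05). Averaged over genotypes it was 1.19 ± 0.14 (adjusted p = 2.81e-07), with 35.6% of the 2851 genes called lower.

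Ighm and Ighd come from one primary transcript in B cells, and their ratio within a mouse moved with stress. In CD8a cells the Ighm value divided by the Ighd value of the same mouse was 10.9, 17.4 and 11.8 in wild-type and 13.5, 10.6 and 7.97 in knockout-labelled control mice. It was 41.7, 27.3 and 23.5 in wild-type and 18.5, 26.8 and 35.1 in knockout-labelled stressed mice. Every stressed mouse had a higher ratio than every control mouse. The Igkc to Ighd ratio also had higher means with stress in CD8a cells. It was 5.37 in wild-type control and 13.5 in wild-type stressed mice, and 6.84 and 12.9 in knockout-labelled mice. Single mice overlapped, with 9.80 in knockout-labelled control mouse 1 and 6.22 in knockout-labelled stressed mouse 1. The mean of Igkc to Ighm was 0.429 and 0.436 in wild-type and 0.628 and 0.455 in knockout-labelled mice. These ratios were looked at after the genes' values had been seen and are given with no test.

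Igha, the IgA heavy chain, is listed only for stress in wild-type CD4 cells and lay near the bottom of the scale. It was 0.0891 and 0.00603 per 10000 in wild-type control mice 1 and 2, and was listed at 0 in mouse 3. In wild-type stressed mice it was 0.0814, 0.0715 and 0.131. Knockout-labelled mice had 0.132, 0.0694 and 0.0442 without stress and 0.0881, 0.0606 and 0.0967 with stress. The wild-type groups overlapped through control mouse 1, and the low values are those of 2 wild-type controls.

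The rise of Igha with stress in wild-type mice was 0.62 ± 0.21 (log2, SE, limma adjusted p = 0.0252), in a comparison where 31% of the 2413 listed genes were called higher. It did not hold without single mice: the adjusted p was 0.113 without wild-type control mouse 2, 0.110 without wild-type control mouse 3 and 0.0881 without wild-type stressed mouse 3. In knockout-labelled mice the change of Igha was 0.02 ± 0.18 (adjusted p = 0.940), with a 95% interval from -0.37 to 0.41.

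Bank1, the B cell scaffold, is listed in CD4 cells for stress in knockout-labelled mice. It was 0.183, 0.110 and 0.0514 per 10000 in wild-type control mice and 0.0672, 0.0741 and 0.0992 in wild-type stressed mice. Knockout-labelled mice had 0.182, 0.213 and 0.310 without stress and 0.0156, 0.0304 and 0.0711 with stress. The knockout-labelled groups were apart and the wild-type groups overlapped. Bank1 fell by 1.27 ± 0.17 in knockout-labelled mice (log2, SE, limma adjusted p = 1.77e-05), the largest log2 fall of a member in CD4 cells. In wild-type mice the change was -0.21 ± 0.20 (adjusted p = 0.401, 95% interval -0.65 to 0.23). Without wild-type control mouse 3 it was -0.44 with an adjusted p of 0.0448.

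Blk, the B cell kinase, is listed in CD4 cells for genotype without stress. It was 0.0742, 0.0341 and 0.0265 per 10000 in wild-type control mice and 0.0408, 0.0451 and 0.0617 in wild-type stressed mice. Knockout-labelled mice had 0.129, 0.160 and 0.109 without stress and 0.0409, 0.0275 and 0.00864 with stress. The knockout-labelled controls were above all of the other mice. Blk fell by 0.89 ± 0.14 with stress in knockout-labelled mice over all 2999 genes, of which 28.1% were called lower (limma adjusted p = 0.000499). In wild-type mice the change was 0.05 ± 0.13 (adjusted p = 0.764, 95% interval -0.25 to 0.35).

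**Figure D2:**
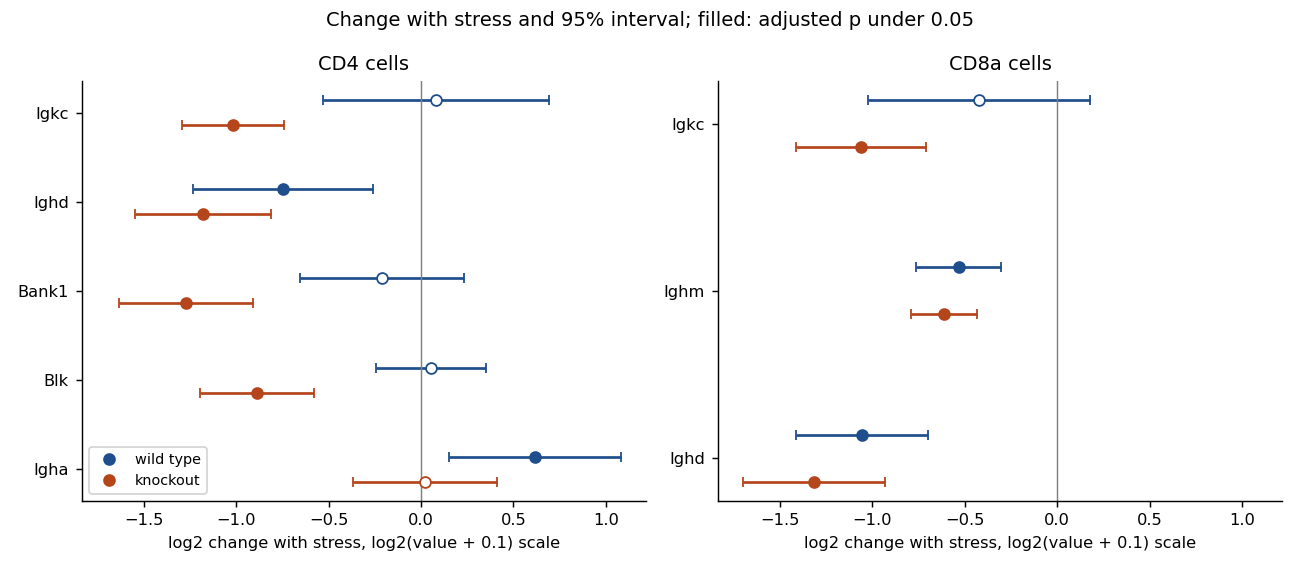
Change with stress of each gene in CD4 cells (left) and CD8a cells (right), as log2(value + 0.1), stressed minus control mice, in wild-type (blue) and knockout-labelled mice (red); bars are 95% intervals and filled points have an adjusted p under 0.05. In CD4 cells Igkc, Bank1 and Blk are filled in knockout-labelled mice alone (-1.02, -1.27 and -0.89), and Ighd is filled in both genotypes and both cell types.

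Whether the response to stress differed between genotypes was tested as an interaction over all 12 mice, since a call in one genotype and none in the other is no such test. In CD4 cells the knockout-labelled minus the wild-type response was -1.10 ± 0.35 for Igkc (log2, SE, adjusted p = 0.392), -1.06 ± 0.29 for Bank1 (adjusted p = 0.320) and -0.94 ± 0.20 for Blk (adjusted p = 0.188), all by limma. No member was called, as none of the 2999 genes was (0%). At an unadjusted p under 0.05 there were 3 of the 5 members, these 3, and 284 of the 2999 genes. Without knockout-labelled control mouse 3 the interaction of Blk had an adjusted p of 0.0482. The interaction was -0.43 ± 0.31 for Ighd (adjusted p = 0.618) and -0.59 ± 0.31 for Igha (adjusted p = 0.545).

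In CD8a cells the interaction of Ighm was -0.08 ± 0.15 (limma adjusted p = 0.915), with a 95% interval from -0.39 to 0.22. It was -0.26 ± 0.27 for Ighd (adjusted p = 0.844) and -0.64 ± 0.37 for Igkc (adjusted p = 0.722). Here too 0 of the 2851 genes were called, with 204 at an unadjusted p under 0.05. The 95% interval was -1.42 to 0.14 for Igkc, which takes in a difference as large as its averaged stress response of -0.74. It was -0.83 to 0.31 for Ighd, which stops short of the averaged response of Ighd, -1.19.

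Averaged over genotypes, 4 of the 5 members fell with stress in CD4 cells, where 29.2% of the 2999 genes did, and all 3 in CD8a cells, where 35.6% of the 2851 genes did. Beside Ighd and Ighm, the falls in CD4 cells were 0.74 ± 0.15 for Bank1 (log2, SE, limma adjusted p = 0.000409), 0.42 ± 0.10 for Blk (adjusted p = 0.00234) and 0.47 ± 0.17 for Igkc (adjusted p = 0.0313), and in CD8a cells 0.74 ± 0.19 for Igkc (adjusted p = 0.00188). The averaged CD4 value of Igkc depended on single mice: its adjusted p was 0.0826 without wild-type control mouse 1, 0.0510 without mouse 2 of that group, 0.0509 and 0.0607 without knockout-labelled control mice 1 and 3, 0.0794 and 0.0659 without wild-type stressed mice 1 and 2, and 0.0773 and 0.0719 without knockout-labelled stressed mice 1 and 2. Centring each mouse on its median also ended that call of Igkc (adjusted p = 0.0651). Igha was 0.32 ± 0.16 higher without passing (adjusted p = 0.0994), and passed without wild-type control mouse 1 (0.00648) or knockout-labelled control mouse 1 (0.0327) and with centring (0.0190).

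Before stress, the knockout-labelled mice had more Igkc and Blk RNA in CD4 cells on average. All 3 knockout-labelled controls were higher than all 3 wild-type controls for Igkc, 1.76-fold by the means, and for Blk, 2.94-fold. How many of the 496 genes of the comparison keep the groups apart in this way was not counted. Blk passed the test, at 0.69 ± 0.19 (log2, SE, limma adjusted p = 0.0475), and Igkc did not, at 0.87 ± 0.27 (adjusted p = 0.0528). So 1 of the 2 listed members was called higher, where 15.1% of the 496 genes of the comparison were.

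Neither CD4 value was steady when 1 mouse was left out. The adjusted p of Blk was 0.0612, 0.126 and 0.126 without wild-type control mouse 1, 2 or 3, and 0.0879 and 0.115 without knockout-labelled control mouse 1 or 2. Igkc passed without wild-type control mouse 1, at 1.19 (adjusted p = 0.0206). The members not listed for this comparison were not called over all 2999 genes, of which 0.634% were called in either direction: Bank1 was 0.67 ± 0.22 higher (limma adjusted p = 0.152), Igha 0.50 ± 0.25 (0.295) and Ighd 0.23 ± 0.24 (0.612).

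In CD8a cells the genotype difference without stress was 0.79 ± 0.33 for Igkc (log2, SE, limma adjusted p = 0.0909), in a comparison with 8.25% of 303 genes called. The wild-type and knockout-labelled controls overlapped through wild-type mouse 1 alone, and without that mouse the difference was 1.20 (adjusted p = 0.00451). Ighd (0.40 ± 0.19, adjusted p = 0.388) and Ighm (0.17 ± 0.09, adjusted p = 0.433) were not called over all 2851 genes, of which 0.772% were.

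RNA of other cell types differed between the same control groups. In CD4 cells the sum of 4 haemoglobin genes was 0.0891 to 0.141 per 10000 in wild-type controls and 0.627 to 5.52 in knockout-labelled controls, and all 4 were called higher. The sum of 4 neutrophil genes (S100a8, S100a9, Lcn2 and Ngp) was 0.0118 to 0.0304 against 0.0796 to 0.280, with 0 of the 2 that are listed for the comparison called. The sum of 5 monocyte and dendritic cell genes (Lyz2, Cst3, Ctss, Fcer1g and Tyrobp) was 1.91 to 2.02 against 2.43 to 3.24, and 3 of the 4 that are listed for the comparison were called higher. Of the 496 genes of the comparison 15.1% were called higher. Over all 2999 genes, 1 of the 4 haemoglobin genes was called higher, with 0 of the 4 neutrophil and 0 of the 5 monocyte and dendritic cell genes. In that fit 0.433% of genes were called higher. The part of these other cell types in the Igkc and Blk values was not tested.

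Under stress, no member is listed for the genotype comparison in either cell type, and none was called over all genes of the cell type. In CD4 cells the knockout-labelled minus wild-type differences ran from -0.39 ± 0.16 for Bank1 (limma adjusted p = 0.504), the 1 member with an unadjusted p under 0.05, to -0.09 ± 0.15 for Igha (adjusted p = 0.903). In CD8a cells they were 0.15 ± 0.21 for Igkc, 0.09 ± 0.10 for Ighm and 0.14 ± 0.16 for Ighd, with adjusted p from 0.774 to 0.834. In these fits 0.1% of 2999 and 0.21% of 2851 genes were called in either direction. Averaged over stress, the genotype difference was not called for any member either, with 2.93% of genes called in CD4 and 2.81% in CD8a cells. The largest was 0.47 ± 0.19 for Igkc in CD8a cells (adjusted p = 0.231), which was 0.67 without wild-type control mouse 1 (adjusted p = 0.0113).

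The comparisons share mice, since the controls of each genotype enter both the stress and the genotype comparison. By group means the order was the same for CD4 Ighd and Bank1: knockout-labelled control, wild-type control, wild-type stressed, knockout-labelled stressed. Within that order the 2 control groups overlapped, and so did the 2 stressed groups, for both genes, while wild-type control and stressed mice overlapped for Bank1 and not for Ighd. For CD4 Igkc and Blk it was knockout-labelled control, wild-type stressed, wild-type control, knockout-labelled stressed, and the last 3 groups overlapped with their neighbours. For all 3 members in CD8a cells it was knockout-labelled control, wild-type control, knockout-labelled stressed, wild-type stressed. The 2 control groups overlapped there, as did the 2 stressed groups. For Igha it was wild-type stressed, knockout-labelled control, knockout-labelled stressed, wild-type control, with all neighbours overlapping.

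The same mouse tended to be high in both cell types. The CD8a value of Igkc correlated with its CD4 value over the 12 mice (log2 scale, Pearson r = 0.90, permutation p and adjusted p over both genes 0.00042; Spearman rho = 0.82, p = 0.00208). These permutations shuffled all 12 mice across the 4 groups, so their p also takes in differences between groups. After subtraction of group means r was 0.89. Without the 2 mice farthest from the median of the CD4 value, r was 0.84. Within the 6 control mice r was 0.93 (exact permutation p = 0.0528, adjusted p = 0.0778) and rho 0.83 (exact p = 0.0583). Within the 6 stressed mice r was 0.75 (exact permutation p = 0.131, adjusted p = 0.261) and rho 0.54 (exact p = 0.297). For Ighd the control and stressed mice do not overlap, so only the values within each are given. In controls r was 0.75 (exact permutation p and adjusted p 0.0778) and rho 0.77 (exact p = 0.103), and in stressed mice r was 0.54 (exact permutation p and adjusted p 0.281) and rho 0.66 (exact p = 0.175). Both cell types of a mouse come from 1 spleen and 1 library.

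Igkc was a little lower in CD8a than in CD4 cells of the same mouse. The CD8a value was 0.864 ± 0.172 of the CD4 value on average (SD, n = 12), and it was lower in 10 of the 12 mice. The difference was -0.22 ± 0.05 on the log2 scale (SE, limma adjusted p = 0.000535), among 2166 genes listed in both cell types of which 35.3% were called lower in CD8a cells. For Ighd the CD8a value was 1.03 ± 0.323 of the CD4 value and lower in 6 of 12 mice. The difference of Ighd was 0.01 ± 0.06 (adjusted p = 0.910), with a 95% interval from -0.12 to 0.14.

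**Figure D3:**
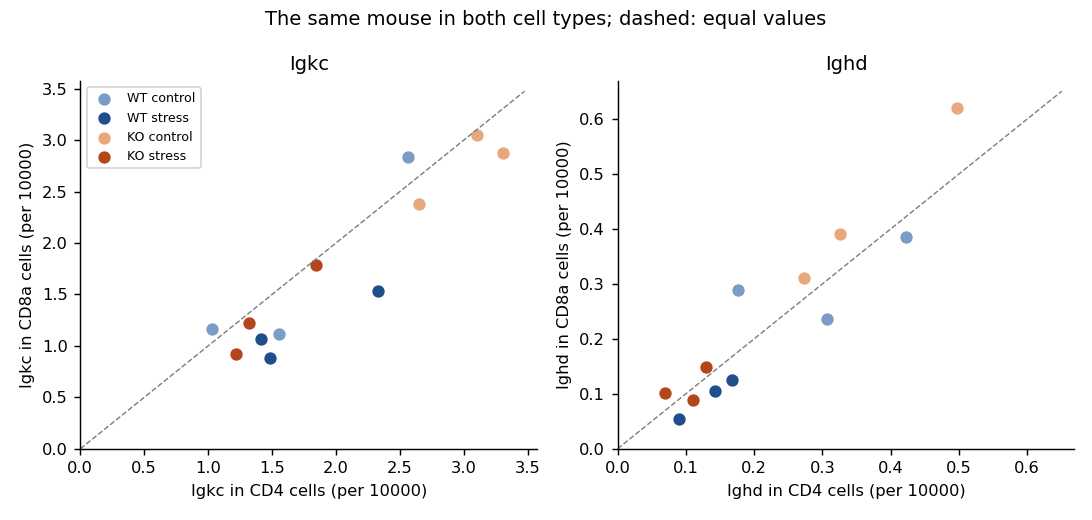
Average expression per 10000 of Igkc (left) and Ighd (right) in CD4 cells (horizontal axis) and CD8a cells (vertical axis) of the same mouse, 12 mice; the dashed line marks equal values and KO stands for knockout-labelled. For Igkc 10 of the 12 points lie below the line, and for Ighd 6 do.

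The genes most like each member over the 12 mice, by Pearson r of log2 values among genes with a mean of at least 0.1 per 10000, fell into different kinds. For Bank1 in CD4 cells they were the lambda light chain gene Iglc3 (r = 0.96), the early B cell factor Ebf1 (0.93) and Mef2c (0.93), a transcription factor also used by B cells. After subtraction of group means these were 0.93, 0.90 and 0.93. For Igkc in CD4 cells they were Swap70 (0.90), which encodes a signalling protein first described in B cells, the MHC class II chain gene H2-Ab1 (0.89) and Cyhr1 (0.88). In CD8a cells they were H2-Ab1 (0.92), H2-Aa (0.87), the other chain of the same class II molecule, and Tm6sf1 (0.85). The median r of all genes with Igkc was 0.15 in CD4 cells and 0.076 in CD8a cells.

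By rank, Ighm in CD8a cells had other nearest genes than Igkc. The genes most like Ighm were Nfatc3 (r = 0.97), which encodes a transcription factor of T cell activation, Cnot6l (0.97) and Jmjd1c (0.97). After subtraction of group means these were 0.87, 0.85 and 0.89. The 4 class II genes Cd74, H2-Aa, H2-Ab1 and H2-Eb1 ranked between place 459 and place 769 of 2587 genes for Ighm, with r of 0.80 to 0.89 over the 12 mice and 0.33 to 0.61 after subtraction of group means. The same 4 genes ranked within the first 9 for Igkc in these cells, where r was 0.81 to 0.92. After subtraction of group means r was 0.65 to 0.87 for Igkc. For Ighd in these cells they ranked between place 210 and place 437, with r of 0.88 to 0.91, so the lower ranks are not particular to Ighm. With 12 mice of 4 groups and a stress response in many genes, these r describe likeness only.

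For Ighd the nearest genes were Gm43065, Arid1a and Mef2c in CD4 cells (r = 0.93 to 0.94), and Smc6, Gm36931 and Tent4b in CD8a cells (r = 0.96 to 0.97). Iglc3 was at place 12 for Ighd in CD8a cells (r = 0.95). For Igha they were Srp14 (0.94), a part of the signal recognition particle, Rab19 (0.94) and Sys1 (0.91). For Blk they were Swap70 (0.87), Il2ra (0.86), the alpha chain of the interleukin-2 receptor, and Efhd2 (0.84). After subtraction of group means Swap70 was 0.32 for Blk, so little of that likeness lay within groups. Among the members themselves the highest r were 0.93 for Ighm with Ighd in CD8a cells and 0.90 for Igkc with Bank1 in CD4 cells, which were 0.57 and 0.88 after subtraction of group means.

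**Figure D4:**
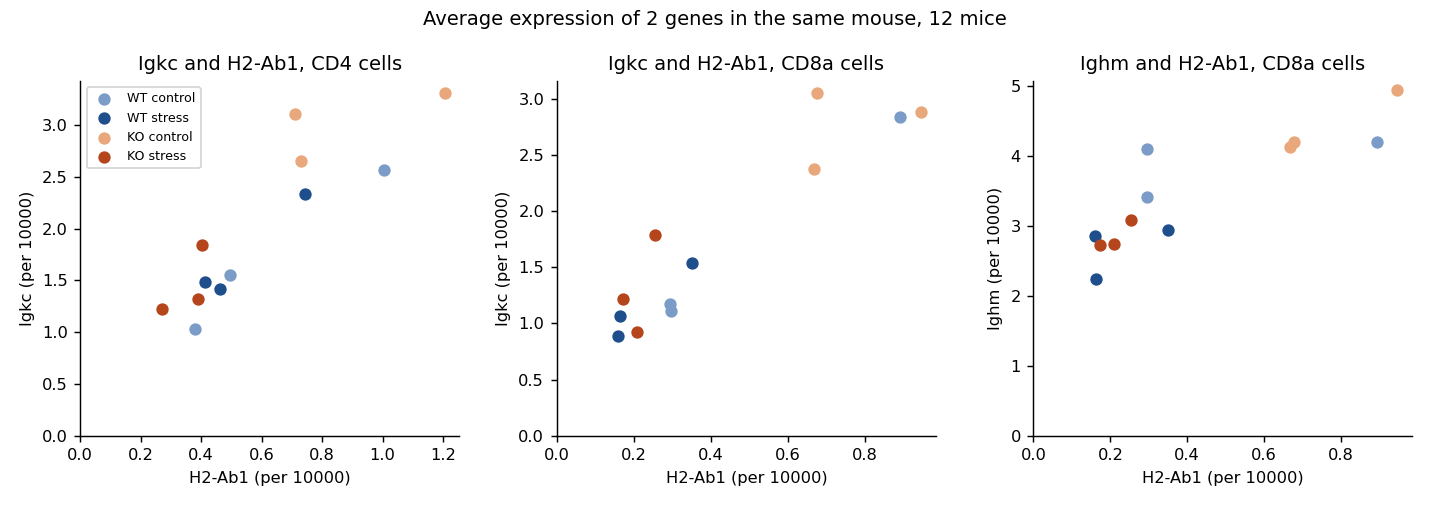
Igkc in CD4 cells (left), Igkc in CD8a cells (middle) and Ighm in CD8a cells (right) against H2-Ab1 of the same mouse and cell type, all per 10000, 12 mice; KO stands for knockout-labelled. Igkc rises along H2-Ab1 over all mice (r = 0.89 and 0.92 on the log2 scale), while the Ighm of wild-type control mice 2 and 3 (4.10 and 3.42) lies with that of the other controls at an H2-Ab1 of 0.296 and 0.295, near that of stressed mice.

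The rest of the B cell programme was looked up in lists of known genes. Cd79a, Cd79b and Ms4a1, which define B cells, are not listed in either cell type. For stress in knockout-labelled mice, 5 of 6 listed MHC class II genes fell in CD4 cells (list median -0.96, all listed genes 0.13) and 4 of 5 in CD8a cells (-1.35 against 0.11). These genes present antigen on B cells, dendritic cells and macrophages. Of all genes listed for these comparisons, 20% of 1898 in CD4 cells and 22.1% of 2023 in CD8a cells were called lower. In CD4 cells H2-Aa fell by 1.20 ± 0.19 (limma adjusted p = 7.69e-05) and Cd74 by 1.03 ± 0.15 (adjusted p = 3.96e-05), and in CD8a cells H2-Ab1 fell by 1.46 ± 0.14 (adjusted p = 1.52e-06) and H2-Aa by 1.40 ± 0.16 (adjusted p = 5.13e-06). H2-DMa, which helps to load class II molecules, was the listed gene that did not pass in either, at 0.14 and -0.07.

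H2-Ab1 in CD8a cells was 0.677, 0.667 and 0.946 per 10000 in knockout-labelled control and 0.209, 0.172 and 0.254 in stressed mice. Wild-type mice had 0.893, 0.296 and 0.295 without stress and 0.163, 0.160 and 0.350 with stress, and their groups overlapped. Wild-type control mouse 1 was again the high mouse, as for Igkc.

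B cell transcription factors fell with stress in knockout-labelled mice, 4 of 4 listed in CD4 cells (median -1.05) and 2 of 2 in CD8a cells (median -0.91). The shares of all listed genes called lower were 20% of 1898 and 22.1% of 2023. In CD4 cells Pou2f2 fell by 1.03 ± 0.09 (limma adjusted p = 1.35e-06) and Bcl11a by 1.00 ± 0.16 (adjusted p = 0.000109). In CD8a cells Pax5, which holds cells in the B lineage, fell by 0.96 ± 0.19 (adjusted p = 0.000524) and Ebf1 by 0.87 ± 0.18 (adjusted p = 0.000749). Of receptor signalling genes other than members, the kinase gene Syk fell by 0.75 ± 0.13 in CD8a cells (adjusted p = 0.000191). Fcer2a, the IgE receptor CD23 of mature B cells, fell by 0.95 ± 0.13 there (adjusted p = 1.92e-05), and the light chain gene Iglc3 fell by 1.27 ± 0.21 in CD4 cells (adjusted p = 0.000159) and 0.97 ± 0.17 in CD8a cells (adjusted p = 0.00017). Iglc3 has close copies among the lambda genes, so its reads are uncertain.

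In wild-type mice fewer B cell genes are listed for stress, and several of those are also genes of T cells. In CD4 cells these were Btla (-0.79 ± 0.11, limma adjusted p = 7.30e-05) and Bach2 (-0.75 ± 0.10, adjusted p = 4.18e-05), an inhibitory receptor and a repressor that T cells express as well. In CD8a cells Prkcb (-0.70 ± 0.10, adjusted p = 4.47e-05), Fcer2a (-0.86 ± 0.22, adjusted p = 0.00367) and Pou2f2 (-0.82 ± 0.15, adjusted p = 0.00026) fell. The 1 listed class II gene, H2-DMa, did not pass in either cell type (0.14 and 0.25). Over all genes of the cell type, 3 of 5 B cell transcription factors and 0 of 6 class II genes fell in wild-type CD4 cells. The share of all 2999 genes called lower there was 27.7%. In wild-type CD8a cells 3 of 4 receptor signalling genes, 2 of 3 transcription factors and 2 of 5 class II genes fell. There 35.4% of all 2851 genes were called lower, so the class II count lies near that share. No class II gene was called in the interaction with genotype. Of the plasma cell list only Sec11c is listed, a signal peptidase subunit that many cells use. It rose in wild-type CD4 cells, by 0.41 ± 0.10 (adjusted p = 0.00283), and was 0.02 ± 0.12 in knockout-labelled CD4 cells (adjusted p = 0.926).

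Summed levels of the lists moved beside the members. The 6 class II genes listed in CD4 cells summed to 2.56 to 6.25 per 10000 in wild-type control, 4.41 to 7.57 in knockout-labelled control, 3.08 to 4.90 in wild-type stressed and 2.39 to 2.93 in knockout-labelled stressed mice. The 5 listed in CD8a cells summed to 2.58 to 5.71, 3.92 to 5.71, 1.50 to 2.80 and 1.63 to 2.05. Genes of other cell types moved with stress as well. The 2 natural killer genes listed in CD4 cells, Gzma and Nkg7, summed to 0.494 to 1.03 in wild-type control, 1.01 to 1.79 in knockout-labelled control, 1.57 to 4.94 in wild-type stressed and 2.56 to 5.53 in knockout-labelled stressed mice. The 8 T cell genes listed in CD4 cells summed to 49.3 to 55.9 in control and 53.8 to 60.1 in stressed mice. Averaged over genotypes, 4 of these 8 rose and 1, Cd4, fell, by 0.50 ± 0.07 (log2, SE, limma adjusted p = 1.01e-05). Of all 2999 genes 25.3% were called higher and 29.2% lower in that fit. Of the 8 T cell genes listed in CD8a cells 3 rose and 5 fell (Cd3e, Cd8a, Cd8b1, Thy1 and Lck), and their sum was 58.0 to 64.7 in control and 56.3 to 61.4 in stressed mice. Of all 2851 genes of CD8a cells 23.8% were called higher and 35.6% lower. Averaged over genotypes, the 4 listed neutrophil genes all rose in CD4 cells, where 25.3% of genes did, and 3 of 5 in CD8a cells, where 23.8% did. In CD4 cells the 4 summed to 0.0118 to 0.280 in control and 0.116 to 0.449 in stressed mice. In knockout-labelled CD4 cells 0 of the 4 were called over all genes, where 11.3% of 2999 were called higher. Of the 3 listed for that comparison 1 was called higher, where 19.5% of its 1898 genes were. S100a9 was lower with stress there, at 0.0418 to 0.0493 in control and 0.0228 to 0.0294 in stressed mice. The part of B cells or of their free RNA in the values of Igkc, Ighm, Ighd, Bank1 and Blk was not tested.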

How the data were processed

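Splenocytes of 12 mice were profiled with the 10x Genomics single-cell kit for 3′ ends, per the labels' protocols. The submitters' processing notes name Cell Ranger 2.1.1 and the genome build mm10. The authors deposited 8 tables of a signal, which the file headers give as average expression by subject, for CD4 and CD8a cells. The signal is linear, fits a scale of 10000 per cell and did not differ between tables of a cell type (0 genes). How cells were filtered and typed, doublets treated and genes selected for a table is not given in the sources used here. No column was left out (0), and depth is unknown.

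The log2 of each value plus 0.1 was fitted in limma 3.58.1 (R 4.3.3) with a mean-variance trend, two-sided, on 3 mice against 3. P-values were adjusted by Benjamini-Hochberg over the genes of that comparison's table and called under 0.05. On this scale fold changes of low genes come out too small. Genes not listed for a comparison were taken from the same fit over all genes of the cell type, which also held the fits to 12 mice (interaction and averages). CD8a minus CD4 was fitted within mice over 2166 genes. Correlations used 100000 resamples with scipy 1.17.1, or all orders for 6 mice. The fits were tested on simulated data. The genes adjusted over were selected on these mice, so false calls may exceed the nominal share.

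The 6 genes, the gene lists and the tests were chosen with earlier results of these data known. Each member was tested in every comparison of a cell type that lists it, and not every value is given above. Other genes named were the 2 with the smallest p per B cell list and comparison and the 3 with the highest r per member. One gene that this rule named is not reported here. The values per mouse of H2-Ab1 and the ratios within a mouse were chosen after they were seen. Sequences came from the mm10 genome and GENCODE M21 annotation. Other settings tried were pseudocounts of 0.01 or 1, leaving out the lowest 25% of genes, centring on each mouse's median, scaling without ribosomal and mitochondrial genes, quality weights per sample, a block for the mouse number, no trend, a joint fit of all 4 groups, and leaving out each mouse.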

Additional observations from a re-analysis of the deposited data

How the results depend on the processing

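Of the 20 gene results that passed the threshold, none reversed in 328 alternatives, and 306 of these kept the call while 22 lost it. The losses were those of Igha and Ighd with stress in wild-type CD4 cells, Blk for genotype without stress and the averaged CD4 Igkc, as given above. Removing the lowest 25% of genes removes low members themselves, so the called members went from 1 to 0 for CD4 stress in wild type, in its own table and over all genes, from 3 to 1 for CD4 stress in knockout-labelled mice and from 1 to 0 there over all genes, from 2 to 1 for CD8a stress in wild type and from 4 to 1 for CD4 stress averaged over genotypes. CD4 genotype without stress was the least settled: 1 member was called, 2 with a pseudocount of 0.01, with quality weights, with all 4 groups in 1 fit and with the mouse number as a replicate block, and 0 with a pseudocount of 1, with centring or without the lowest 25% of genes. The cause was not tested.

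Leaving out 1 mouse gave 0 to 1 called members for CD4 stress in wild type, 0 to 2 there over all genes, 0 to 1 for CD4 genotype without stress, CD8a genotype without stress, CD8a stress in wild type over all genes, the CD4 interaction and CD8a genotype averaged over stress. Changes near zero turned sign. With 1 mouse left out the range was -0.44 to 0.012 for Bank1, -0.22 to 0.40 for Igkc and -0.037 to 0.19 for Blk (CD4 stress in wild type), -0.13 to 0.21 for Igha (CD4 stress in knockout-labelled mice), -0.014 to 0.44 for Ighd (CD4 genotype without stress), -0.18 to 0.038 for Igha (CD4 genotype under stress), and -0.024 to 0.16 for Ighm, -0.022 to 0.25 for Ighd and -0.088 to 0.36 for Igkc (CD8a genotype under stress). It was -0.20 to 0.011 for the CD8a Ighm interaction, -0.047 to 0.049 for Ighd in CD8a minus CD4 cells (-0.013 with a pseudocount of 0.01), and -0.11 to 0.12 for CD4 Ighd by genotype averaged over stress. The last was -0.020 with a pseudocount of 0.01, -0.044 with centring, -0.00745 without ribosomal and mitochondrial genes and -0.063 with quality weights.

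Mice of the same number did not deviate together (r -0.24 to 0.24 over the comparisons, never above 0.1 for all 3 numbers), so the numbers do not pair the mice, and with the number as a block Igkc passed for CD4 genotype without stress (adjusted p = 0.0380). Centring moved the median log2 change of all genes by more than any other scaling, from 0.027 to 0.21 for CD8a stress averaged over genotypes and from 0.054 to 0.16 for CD4. Depth is unknown, so values near 0, as those of Igha and Blk, carry a counting error that cannot be given.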
